A study of Mus musculus with 4 samples.

Results

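Voltage-gated potassium channels let potassium leave a neuron when its membrane is depolarised, and so end the action potential and set how fast the cell can fire again. The genes described here are 9 pore-forming subunits of cerebellar neurons: Kcna1, Kcna2 and Kcna6 of the Kv1 family, Kcnc1, Kcnc2 and Kcnc4 of the Kv3 family, Kcnd2 and Kcnd3 of the Kv4 family, and Kcnma1, the large-conductance (BK) channel. They were chosen by gene symbol from the 24015 genes of the count table, and 9 of 9 were measured well enough to be tested. The RNA came from cerebella of adult C57BL/6N mice at postnatal day 140 to 150, either heterozygous for an Arid1b knockout (HT) or wild type littermates (WT). Each genotype was represented by 1 male and 1 female library, 4 libraries in all. Arid1b encodes a subunit of the BAF chromatin remodelling complex, and the comparison asks how gene expression differs when 1 copy is lost. The labels do not say which part of the gene was deleted. The libraries differ in genotype or sex, so no pair of them can share an animal, but the labels do not say whether a library is 1 animal or a pool.

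Kv1 channels open at low voltages and sit on axons and axon terminals, where they limit excitability. In the cerebellum they are dense in the basket cell terminals around the Purkinje cell axon. Kv3 channels open at high voltages and close fast, which allows rapid firing. Kv4 channels carry the transient A-type current of cell bodies and dendrites, and BK channels open with both depolarisation and internal calcium.

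The libraries held 15950899 to 20616219 counts, so 3 counts correspond to 0.146 to 0.188 CPM (counts scaled to a library total of 1e+06). Arid1b itself stood at 52.9 and 55.8 CPM in the male and female HT libraries and at 69.9 and 71.0 in the male and female WT libraries. Its log2 fold change was -0.37 ± 0.11 (SE), with an adjusted p of 0.243 (edgeR quasi-likelihood test, adjusted over all genes). It passed without the male WT library (-0.38, adjusted p = 0.0029, edgeR) and without the female WT library (-0.36, adjusted p = 0.0261, edgeR). It did not pass without the male HT library (-0.33, adjusted p = 1, edgeR) or the female HT library (-0.42, adjusted p = 0.949, edgeR). Fits with 1 library left out differ widely in how many genes pass: 17.5% of all tested genes without the male WT, 4.3% without the female WT, 0.0193% without the female HT and 0% without the male HT library. The counts cover the whole gene, so they show its transcript level and not the deletion. Markers of the labelled tissue were present, with 8 of 8 granule cell and 9 of 9 Purkinje cell genes detected in every library. The tissue is a mixture, and fewer cells of a type and less RNA per cell cannot be told apart.

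The Kv3 genes gave the widest range of patterns among the members, and the 250 bases upstream of their annotated starts are shown for that reason. The sequences are from RefSeq (build GRCm38.p6, which is not the mm9 build named in the submitters' notes), 5′ to 3′ on the gene's strand. Capitals mark the GC box GGGCGG or its reverse complement CCGCCC.
Kcnc1, chr7:46396218-46396467, plus strand: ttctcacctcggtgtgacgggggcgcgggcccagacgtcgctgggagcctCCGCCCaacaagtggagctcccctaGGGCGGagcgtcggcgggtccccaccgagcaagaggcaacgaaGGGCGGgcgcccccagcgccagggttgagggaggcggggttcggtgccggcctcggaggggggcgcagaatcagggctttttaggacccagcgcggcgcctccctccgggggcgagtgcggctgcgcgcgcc
Kcnc2, chr10:112270871-112271120, plus strand: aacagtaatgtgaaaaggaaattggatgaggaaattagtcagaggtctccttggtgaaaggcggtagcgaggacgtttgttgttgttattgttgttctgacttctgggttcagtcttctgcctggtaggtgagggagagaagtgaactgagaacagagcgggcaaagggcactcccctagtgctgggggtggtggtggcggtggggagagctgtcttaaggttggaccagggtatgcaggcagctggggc
Kcnc4, chr3:107458899-107459148, minus strand: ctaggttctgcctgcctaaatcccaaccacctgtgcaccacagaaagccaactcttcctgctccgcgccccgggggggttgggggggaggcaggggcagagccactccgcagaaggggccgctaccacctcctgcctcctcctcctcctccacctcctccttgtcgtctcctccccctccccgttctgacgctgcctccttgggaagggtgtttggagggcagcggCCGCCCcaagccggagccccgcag

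The Kcnc1 window was 74.4% G or C, held 30 CG pairs and had 3 GC boxes. The Kcnc4 window was 68.0% G or C with 12 CG pairs and 1 GC box. The Kcnc2 window was 52.8% G or C with 5 CG pairs and 0 GC boxes. RefSeq lists other starts for Kcnc2, and the window at chr10:112269767-112270016 held 1 GC box. Across all 32851 such windows in the table the median was 52.4% G or C and 6 CG pairs, and 32.7% held a GC box on either strand. The sequence TATAAA, searched on both strands, was in 12.4% of all windows and in 0 of the printed ones. A match describes these letters and does not show that a factor binds there. Windows for 8 of the 9 members were in the table.

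Among the members, Kcna1 and Kcnc1 had the highest transcript levels and Kcnma1 the lowest, when counts were scaled to the longest annotated transcript (CPM per kilobase, mean ± SD over 4 libraries). Kcna1 stood at 87.8 ± 2.65 CPM per kilobase and Kcnc1 at 80.7 ± 7.40, and their ranges over the libraries overlapped. Kcna2 at 35.8 ± 1.11 and Kcnd2 at 33.3 ± 3.08 followed, again with overlapping ranges, as did Kcnc4 at 25.8 ± 1.20 and Kcna6 at 25.2 ± 0.860. Kcnd3 stood at 13.8 ± 1.67, Kcnc2 at 9.05 ± 3.24 and Kcnma1 at 3.83 ± 0.168, and the ranges of these neighbours in the order did not overlap. The steps between Kcnc1 and Kcna2, between Kcnd2 and Kcnc4, and between Kcna6 and Kcnd3 were also free of overlap. The order rests on the longest transcript of each gene, which the neurons need not use, and Kcna2 and Kcnma1 have the longest at 11.6 and 12.1 kilobases.

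**Figure D1:**
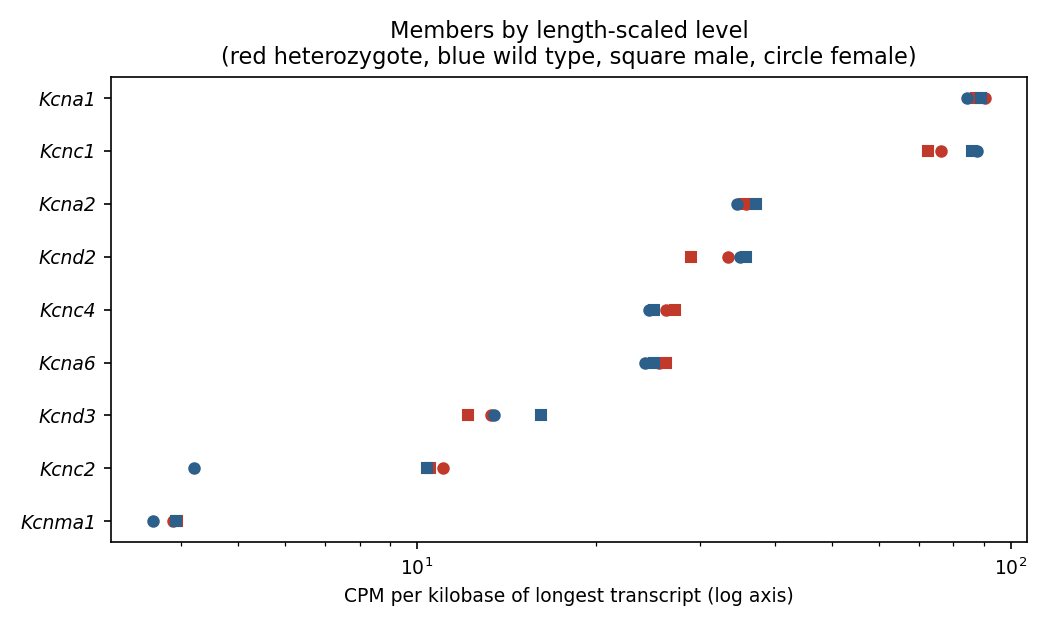
Level of each of the 9 members in CPM per kilobase of the longest transcript, on a log axis, with 1 point per library. Kcna1 and Kcnc1 lie at the top and Kcnma1 at the bottom, and the Kcnc2 point of the female WT library lies far to the left of the other Kcnc2 points.

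The Kv1 members were at like levels in the HT and WT libraries. Kcna1, whose human counterpart is mutated in episodic ataxia, stood at 351.9 CPM in the male and 364.7 CPM in the female HT library, against 358.5 CPM in the male and 339.8 CPM in the female WT library. The groups overlapped, and the log2 fold change (HT minus WT) was 0.04 ± 0.10 (SE), with a 95% interval from -0.19 to 0.26. Kcna2, which assembles with Kcna1 in axonal channels, stood at 410.5 and 415.2 CPM in the male and female HT libraries and at 431.5 and 400.8 in the WT libraries. The HT values lay between the WT values, and the log2 fold change was -0.01 ± 0.10 (SE), with an interval from -0.23 to 0.22. Kcna6, a further Kv1 subunit of mixed channels, stood at 152.9 and 149.0 CPM in the HT and 146.0 and 141.0 CPM in the WT libraries, male before female. Its groups did not overlap, but the difference was small, 0.08 ± 0.10 (SE) with an interval from -0.15 to 0.30. None of the Kv1 members passed the test, with adjusted p of 0.925 for Kcna1, 0.985 for Kcna2 and 0.832 for Kcna6 (edgeR quasi-likelihood test). The direction for Kcna2 turned to 0.04 without the male WT library, and that for Kcna1 to -0.00207 without the female WT library.

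The make-up of the Kv1 group was nearly constant as well. As a share of the CPM per kilobase of the 3 genes, Kcna1 made up 58.6% and 59.6% in the male and female HT libraries and 58.8% and 58.9% in the WT libraries. Kcna2 made up 23.6% to 24.6% and Kcna6 16.6% to 17.6% over the 4 libraries. These shares are descriptions with no test.

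The Kv3 genes pointed different ways. Kcnc1, the Kv3 subunit of granule cells and deep nuclear neurons, was lower in both HT libraries, at 563.1 CPM in the male and 592.3 CPM in the female, than in the male (668.0) and female (681.1) WT libraries. The means were 577.7 ± 20.7 CPM in HT and 674.5 ± 9.24 in WT (SD, n = 2 each). Those groups did not overlap, and the log2 fold change was -0.22 ± 0.10 (SE), a 0.858-fold level. Its unadjusted p was 0.0485 and its adjusted p was 0.425 (edgeR quasi-likelihood test over all genes), so it did not pass. Without the male WT library, where 17.5% of all genes passed, the value was -0.24 with an adjusted p of 0.0217 (edgeR). It did not pass without the female WT (-0.21, adjusted p = 0.121), the male HT (-0.18, adjusted p = 1) or the female HT library (-0.27, adjusted p = 0.949, edgeR for each).

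Kcnc4, which gives Kv3 channels that inactivate quickly, was slightly higher in HT, at 99.8 and 96.4 CPM in the male and female against 91.7 and 90.1 in the male and female WT libraries. The groups did not overlap, and the log2 fold change of 0.11 ± 0.10 (SE) did not pass (edgeR, adjusted p = 0.736). Kcnc2, a Kv3 subunit of fast-spiking neurons in many brain regions, stood at 53.1 CPM in the male HT, 55.9 CPM in the female HT and 52.4 CPM in the male WT library. In the female WT library it stood at 21.2 CPM, from 438 counts. The female WT library was thus the only low library, and the male libraries differed by a log2 ratio of 0.02 while the female libraries differed by 1.39. The fitted log2 fold change of Kcnc2 was 0.69 ± 0.48 (SE), with an interval from -1.14 to 2.52 and an adjusted p of 0.713 (edgeR). Without the female WT library it was 0.05 (adjusted p = 0.865, edgeR), and without the male WT library it was 1.36 (adjusted p = 1.47e-24, edgeR). In a fit without 1 library the remaining pair of the other genotype alone sets the spread, and there is no term for sex.

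The summed level of the 3 Kv3 members was 716.0 and 744.6 CPM in the male and female HT libraries and 812.2 and 792.4 in the male and female WT libraries. Within that group, by CPM per kilobase, Kcnc1 made up 65.8% and 67.1% in the HT and 70.9% and 75.3% in the WT libraries, male before female. Kcnc2 made up 9.54% and 9.74% in the HT, 8.56% in the male WT and 3.61% in the female WT library. Kcnc4 made up 24.7% and 23.1% in the HT and 20.6% and 21.1% in the WT libraries. The 3 shares add up to the whole, so they cannot vary independently, and the WT mean of Kcnc2 rests on the low female WT library.

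**Figure D2:**
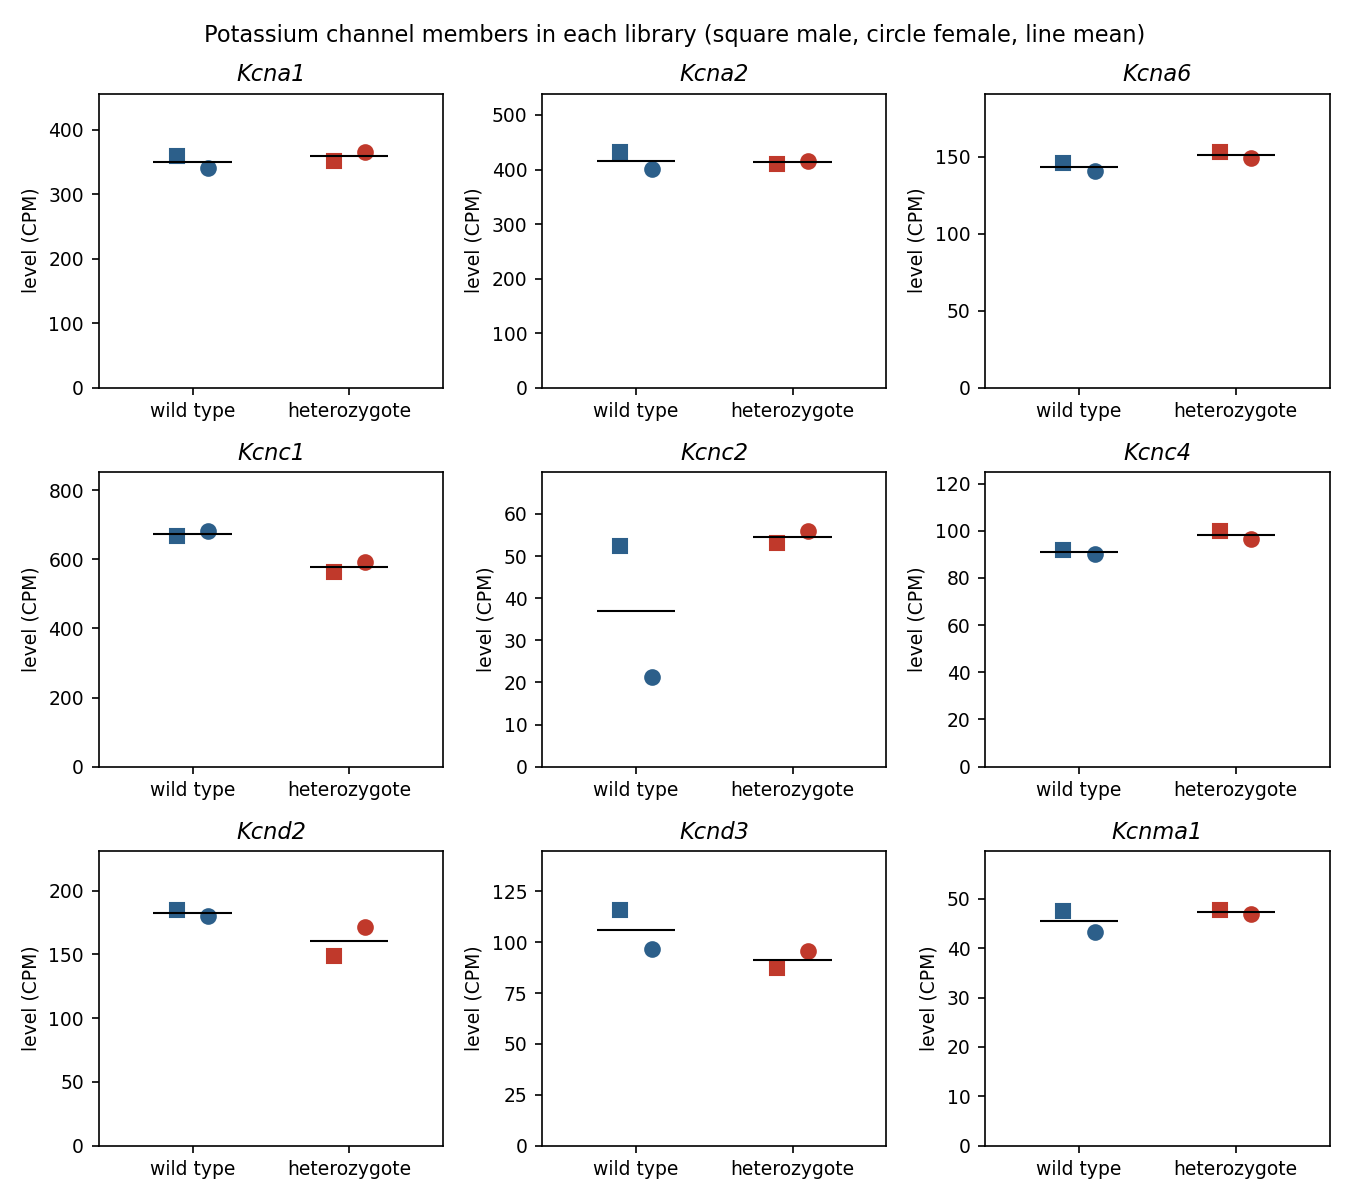
Level of each member in CPM, with WT libraries in blue and HT libraries in red, squares for males, circles for females and a line at the mean of each genotype; each axis starts at 0. Kcnc1 is lower in both HT libraries, and Kcnc2 is low in the female WT library only.

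Both Kv4 members were lower in HT, with log2 ratios of -0.31 for Kcnd2 and -0.40 for Kcnd3 between the males and -0.07 and -0.01 between the females. Kcnd2, the main A-type subunit of granule cells, stood at 149.0 and 171.8 CPM in the male and female HT libraries and at 184.6 and 180.2 CPM in the male and female WT libraries. The groups did not overlap, and the log2 fold change was -0.19 ± 0.11 (SE), with an interval from -0.42 to 0.05 and an adjusted p of 0.542 (edgeR). The value was -0.08 without the male HT library and -0.30 without the female HT library. Kcnd3, the A-type subunit shared by granule cells and molecular layer interneurons, stood at 87.4 and 95.6 CPM in the HT and 115.7 and 96.8 CPM in the WT libraries, male before female. The female libraries nearly coincided, and the groups were apart by little. The log2 fold change was -0.21 ± 0.12 (SE), with an interval from -0.47 to 0.05 and an adjusted p of 0.533 (edgeR). It was -0.08 without the male WT library, -0.15 without the male HT library and -0.34 without the female WT library.

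The ratio between the Kv4 members hardly varied. By CPM per kilobase, Kcnd2 made up 70.3%, 71.4%, 69.0% and 72.2% of their sum in the male HT, female HT, male WT and female WT libraries. Kcnd1, a Kv4 gene outside the members, was higher in HT. It stood at 6.11 and 4.95 CPM in the HT and 3.65 and 3.4 CPM in the WT libraries, male before female. Its log2 fold change was 0.65 ± 0.27 (SE), with an adjusted p of 0.389 (edgeR). An antisense gene, Kcnd3os, shares exonic sequence with Kcnd3 on the other strand. It had 4 to 26 counts per library against 1525 to 1995 for Kcnd3. The Kcna6 and Kcnma1 exons also overlap non-coding genes of the other strand in the GRCm38 annotation, which are not analysed here.

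Kcnma1 was the steadiest member beside the Kv1 members. It stood at 47.7 and 46.9 CPM in the male and female HT libraries and at 47.5 and 43.4 CPM in the WT libraries, so the groups overlapped. Its log2 fold change was 0.06 ± 0.12 (SE), with an interval from -0.21 to 0.33 and an adjusted p of 0.902 (edgeR). It was -0.00837 without the female WT library.

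Over the 9 members, 5 had a positive and 4 a negative log2 fold change, with a median of 0.04 beside 0.0063 over all 15117 tested genes. None of the 9 passed an adjusted p of 0.05 in edgeR, in DESeq2 or in limma-voom, and 0.0198% of all tested genes passed in edgeR. At an unadjusted p under 0.05 there was 1 member, Kcnc1, against 11.7% of all tested genes, so the share among the members was close to the background. Kcna6, Kcnc2 and Kcnc4 were higher in both HT libraries than in either WT library, where 22.1% of all tested genes were. Kcnc1, Kcnd2 and Kcnd3 were lower in both HT libraries, where 22.6% of all tested genes were. The summed level of the 9 genes was 1915 and 1988 CPM in the male and female HT and 2096 and 1994 CPM in the male and female WT libraries, so that the groups did not overlap but the females nearly coincided.

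**Figure D3:**
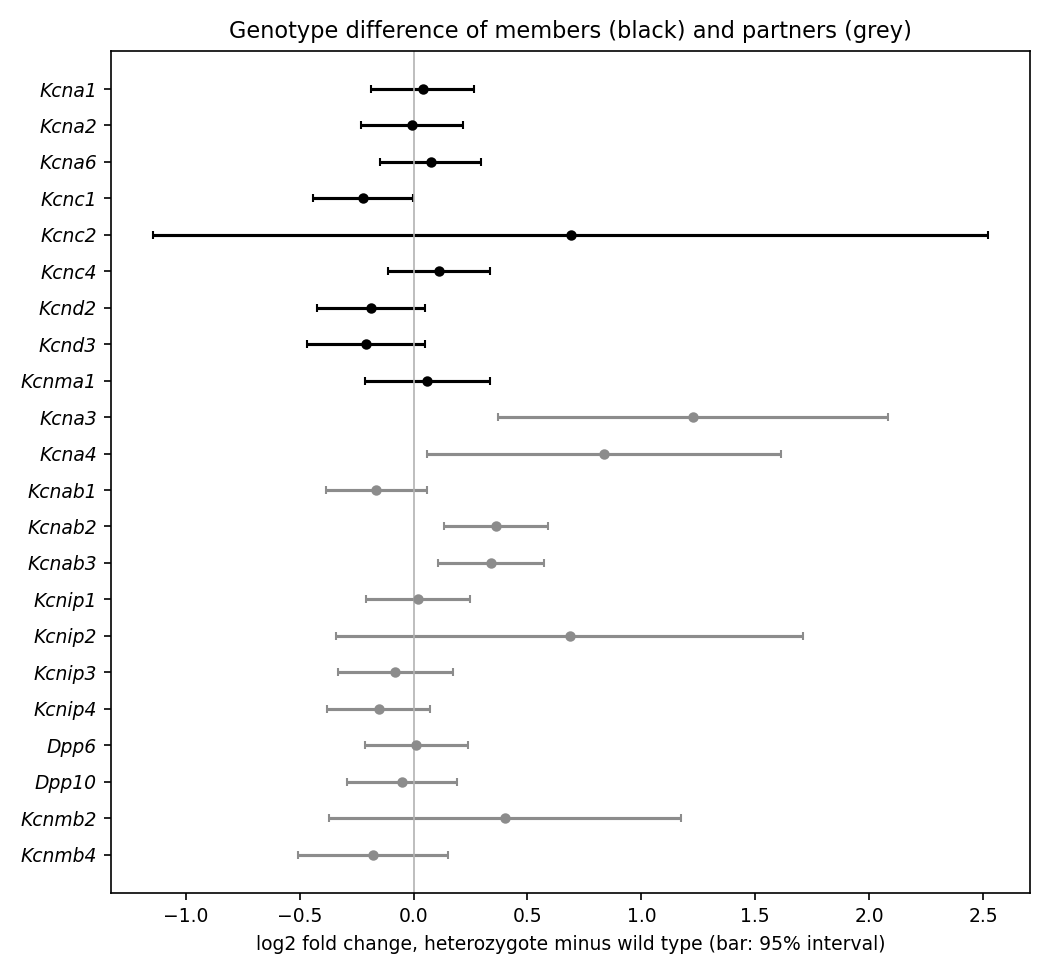
Log2 fold change of each member (black) and of selected partner genes (grey), HT minus WT, with the 95% interval of the edgeR fit as a bar. Of the members, Kcnc1 has the interval that ends just below 0, and the Kcnc2 interval runs from -1.14 to 2.52.

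Cell type markers differed between the genotypes beside these values. Of all tested genes, 51.1% were higher and 48.9% lower in HT, and 0.0198% passed in edgeR. All 8 granule cell markers had lower levels in HT (0 passed singly), with a median log2 fold change of -0.44. Their summed level was 2630 and 3022 CPM in the male and female HT and 3601 and 4162 CPM in the male and female WT libraries. Kcnc1, at a log2 fold change of -0.22, ordered the 4 libraries in the same way as that sum. So did Kcnt1 and Adam11, described below, and how many of all genes share this order was not counted. Kcnd2 and Kcnd3 did not, as the male WT library was the highest for both. All 9 Purkinje cell markers had a lower fitted level as well (0 passed singly), with a median of -0.32, and the groups overlapped for 1 of them. The median was -0.11 between the males and -0.53 between the females. Their sums were 3749 and 3522 CPM in HT and 4238 and 4908 CPM in WT, male before female. Of 8 interneuron and Golgi cell markers, 4 were higher, 1 of them past the test, and 4 lower, with a median of 0.06 and sums of 1831 to 1989 CPM in HT and 1880 to 2084 CPM in WT. The part of these markers in the Kcnc1, Kcnd2 and Kcnd3 values was not tested.

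Neurons of the brainstem and deep nuclei gave the opposite picture. All 8 of their markers were higher in HT, where 51.1% of all tested genes were, with a median of 0.92. Of the 8, 1 passed the test, where 0.0198% of all tested genes did. The summed level of these markers was 961.5 and 896.8 CPM in the male and female HT against 774.8 and 605.1 CPM in the WT libraries. The female WT library was the lowest for each of them except Nefh. Slc17a6, the vesicular glutamate transporter of such neurons, stood at 162.9, 164.2 and 152.8 CPM in the male HT, female HT and male WT libraries and at 66.4 CPM in the female WT library. Tph2, the serotonin synthesis enzyme of raphe neurons, stood at 52.1, 49.5 and 52.2 CPM in the same order and at 5.63 CPM in the female WT library. For Slc17a6 and Tph2 these are the libraries in which Kcnc2 was high and low. Other markers of the list differed between the males as well. Th stood at 57.7 CPM in the male HT and 30.7 CPM in the male WT library, and Spp1 at 140.6 and 84.8 CPM. The part of the markers in the Kcnc2 value was not tested. No marker on any of these lists was at 0 in a library.

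The sexes were compared in the same fit. None of the 9 members differed between males and females at an adjusted p of 0.05 (0.0595% of all tested genes did) or at an unadjusted p under 0.05 (3.82% did). Sizes ran from 0.01 for Kcna1 to 0.60 ± 0.48 (SE) for Kcnc2, males higher in both. The genotype effect was then compared between the sexes. None of the 9 passed at an adjusted p of 0.05, where 0.0198% of all tested genes did, or at an unadjusted p under 0.05, where 3.55% did (edgeR). For Kcnc2 the male log2 ratio was lower than the female by 1.35 ± 0.73 (SE), and for Kcnd3 the male value lay 0.39 ± 0.22 (SE) below the female, with an adjusted p of 0.998 for each. With 1 library per sex and genotype, small differences of this kind were not detectable. This fit had no main effect of sex, so a difference in level between the sexes counted as residual spread. A gene low in 1 library alone, as Kcnc2 was, could thus miss the test even with a large difference.

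**Figure D4:**
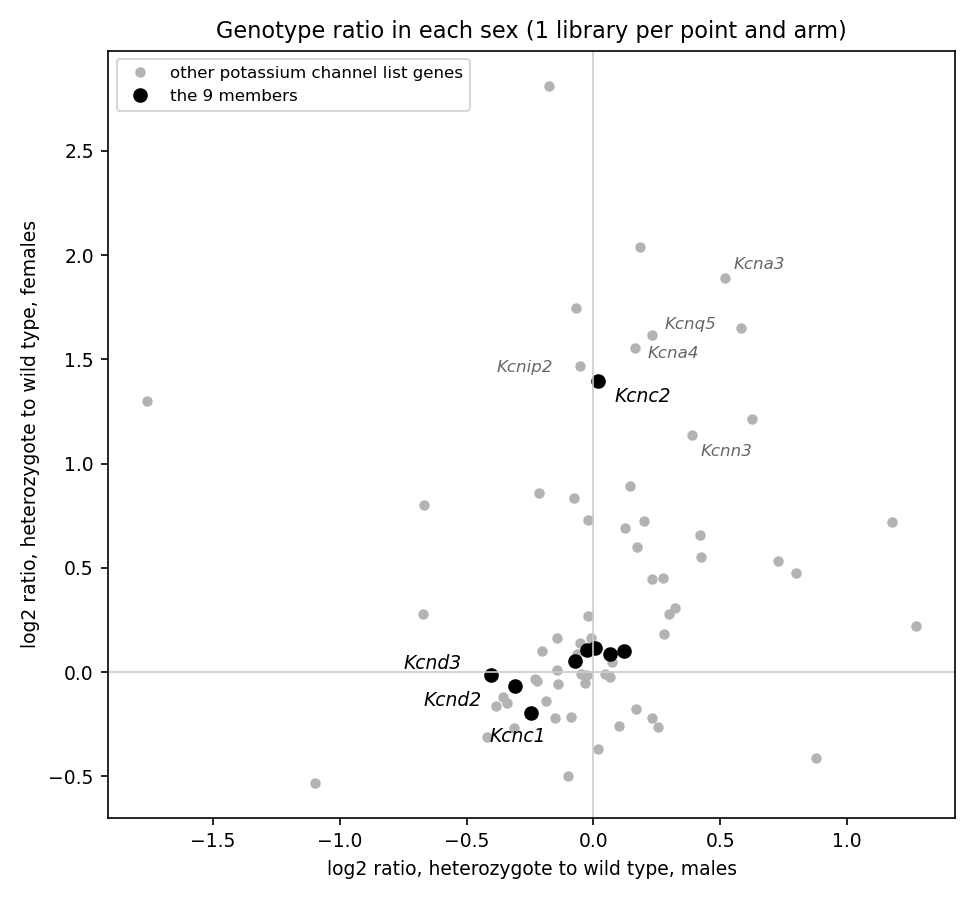
Log2 ratio of HT to WT in females (vertical) against males (horizontal) for the 9 members (black) and the other tested potassium channel and partner genes (grey), 1 library per genotype in each sex. Most members lie near the origin, while Kcnc2 lies at 0.02 in males and 1.39 in females, among Kcnip2, Kcna4 and Kcnq5.

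Kcnc2 and Kcnd3 had the widest ranges over the libraries, 1.40 and 0.40 on the log2 scale. Genes with a like pattern were sought among 10434 tested genes with a mean of at least 10 CPM, by the root mean square difference of the centred log2 CPM over 4 libraries. Closest to Kcnc2 were Ldb2 (0.0257), a LIM domain-binding cofactor, Kcnip2 (0.0409), a Kv4 accessory protein, and Slc17a6 (0.0422). Ldb2 stood at 15.3, 16.9 and 15.2 CPM in the male HT, female HT and male WT libraries and at 6.26 CPM in the female WT library. Closest to Kcnd3 were Lrif1 (0.00892), Gspt1 (0.0147), a translation termination factor, and Slitrk2 (0.0158), a synaptic adhesion protein. In those genes, as in Kcnd3, the male WT library was the highest. With 4 libraries and so many genes, close matches are easily found.

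**Figure D5:**
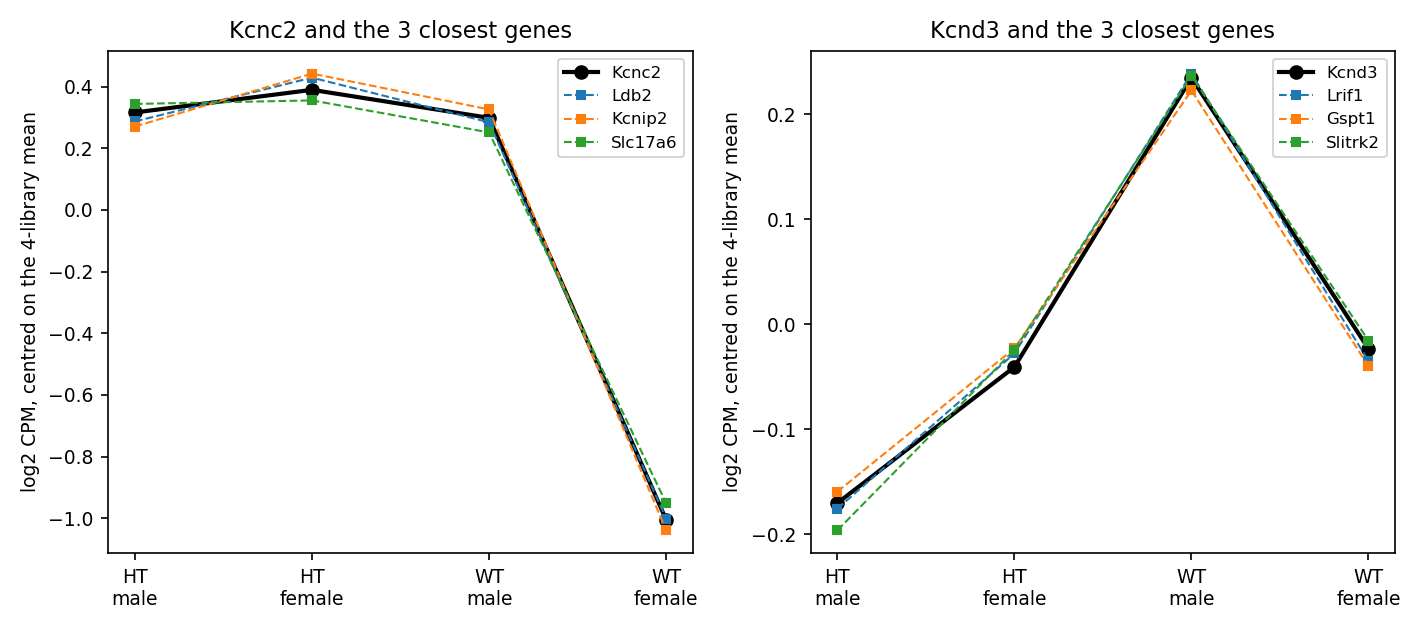
Log2 CPM centred on the 4-library mean for Kcnc2 (left) and Kcnd3 (right), each with its 3 closest genes; lines only join the 4 libraries for reading. Kcnc2 and its neighbours drop in the female WT library, and Kcnd3 and its neighbours peak in the male WT library.

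Accessory subunits bind the pore-forming members and set their number and kinetics. Of 21 listed accessory genes 17 were tested and 0 passed in edgeR, with 10 higher and 7 lower in HT and a median of 0.02. By sign, 51.1% of all tested genes were higher and 48.9% lower. At an unadjusted p under 0.05 there were 3 higher and 0 lower, where 5.22% of all tested genes were higher and 6.46% lower. Kcnab2, a cytoplasmic beta subunit of Kv1 channels, had the smallest p of the list. It stood at 392.3 and 398.7 CPM in the male and female HT libraries and at 324.4 and 292.6 CPM in the male and female WT libraries. The groups did not overlap, and the log2 fold change was 0.36 ± 0.10 (SE, edgeR adjusted p = 0.219). Kcnab3, the related subunit, had 172.2 and 171.1 CPM in HT and 146.7 and 126.1 CPM in WT, and 0.34 ± 0.11 (SE, edgeR adjusted p = 0.254). Kcnab1 had -0.16 ± 0.10 (SE). Kcnab2 was at 0.44 without the male WT and 0.28 without the female WT library. It was at 0.37 without the male HT and 0.34 without the female HT library. Kcnab3 was at 0.45 without the male WT library and at 0.33 without either HT library.

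For Kv4, the calcium-binding KChIP subunits and the dipeptidyl peptidase-like proteins gave no difference past the test. Kcnip1 had a log2 fold change of 0.02 ± 0.10, Kcnip3 -0.08 ± 0.11, Kcnip4 -0.15 ± 0.10, Dpp6 0.01 ± 0.10 and Dpp10 -0.05 ± 0.11 (all SE). Kcnip2 had 0.68 ± 0.40 (SE), with 15.03, 16.9 and 15.6 CPM in the male HT, female HT and male WT libraries and 6.06 CPM in the female WT library. That is the pattern of Kcnc2. Kcnip2 was at 0.03 without the female WT library (adjusted p = 0.954, edgeR) and at 1.40 without the male WT library (adjusted p = 3.5e-09, edgeR; 17.5% of all genes passed there). Without the male WT library Dpp10 turned to 0.08 and Kcnip1 to -0.01. Kcnip3 turned to 0.05 without the female WT library, and Dpp6 to -0.07 without the female HT library. For BK channels, Kcnmb4, the neuronal beta subunit, had -0.18 ± 0.15 (SE), which was 0.10 without the female WT library and -0.46 without the male WT library. Kcnmb2, at 1.36 to 3.45 CPM, had 0.40 ± 0.35 (SE) and -0.13 without the female WT library. Kcnmb1, at 0.838 to 1.40 CPM, had -0.21 ± 0.49 (SE), with 0.06 without the male HT and 0.02 without the male WT library, and Kcnmb3 had 0 counts in every library. Also among the smallest p-values of this list, Kcne2 had 0.78 ± 0.31 and Lrrc55, an auxiliary protein of BK channels, 0.51 ± 0.24 (both SE). Kcne2 was at 0.24 without the male HT and 1.27 without the female HT library, with 8.38 CPM in the male HT and 3.40 to 4.08 CPM in the other libraries. The 5 choroid plexus markers, none at 0, summed to 1937 CPM in the male HT and 996.7 to 1041 CPM in the other libraries. Most of that sum was Ttr, at 1857 CPM in the male HT library. Folr1, Kl and Clic6 were also highest there, but Otx2 stood at 17.45 CPM there and 19.57 CPM in the male WT library. The part of these markers in the Kcne2 value was not tested. Lrrc55 was at 0.10 without the female WT library and at 0.95 without the male WT library.

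Of 32 other voltage-gated alpha subunits 29 were tested, 23 higher and 6 lower in HT, with a median of 0.35, where 51.1% of all tested genes were higher and 48.9% lower. For males alone the median was 0.17, and for females alone it was 0.55. Again 0 passed in edgeR, and at an unadjusted p under 0.05 there were 9 higher and 0 lower, where 5.22% of all tested genes were higher and 6.46% lower at that p. Of these, 8 had a mean of at most 10.1 CPM, and Kcnh2 stood at a mean of 100.5 CPM. Kcna3, a Kv1 gene, rested on 3.80 and 5.14 CPM in the male and female HT and 2.61 and 1.31 CPM in the male and female WT libraries, a log2 fold change of 1.23 ± 0.39 (SE, edgeR adjusted p = 0.267). Kcnq5, an M-current subunit, had 0.92 ± 0.34, Kcnh6 0.99 ± 0.36, Kcnh3 0.65 ± 0.27 and Kcna4, a fast-inactivating Kv1 subunit, 0.83 ± 0.34 (all SE, edgeR adjusted p from 0.267 to 0.397 for these and Kcna3). Kcna3, Kcna4, Kcnq5 and Kcnh6 passed without the male WT library, at 1.76, 1.61, 1.48 and 1.04 with an adjusted p of at most 0.0428 (edgeR), in the fit where 17.5% of all genes passed. Without the female WT library they did not pass: Kcna3 was at 0.76, Kcna4 at 0.14 and Kcnq5 at 0.40, while Kcnh6 was at 1.00.

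Of 11 genes listed as Kv1 complex proteins of the axon, 4 were higher and 7 lower in HT, with a median of -0.10. Of all tested genes 48.9% were lower. On this list 0 passed in edgeR. At an unadjusted p under 0.05 there were 0 higher and 3 lower, where 6.46% of all tested genes were lower. Cntn2, an axonal adhesion protein of the region beside the node, had -0.27 ± 0.11 (SE, edgeR adjusted p = 0.35). Adam22, the receptor of the secreted protein Lgi1, had -0.24 ± 0.11, Dlg1, a scaffold, -0.24 ± 0.11, and Adam11, needed to place Kv1 channels at basket cell terminals, -0.18 ± 0.10 (all SE). Cntn2 was at -0.23 without the male WT and -0.32 without the female WT library. It was at -0.21 without the male HT and -0.35 without the female HT library. Adam22 was at -0.29 and Dlg1 at -0.28 without the female WT library, against -0.175 and -0.18 without the male HT library. Adam11 was at -0.25 without the male WT and -0.16 without the male HT library.

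Of the calcium- and sodium-activated relatives of Kcnma1, 6 of 7 were tested, 3 higher and 3 lower, and 0 passed in edgeR. At an unadjusted p under 0.05 there were 1 higher and 1 lower, where 5.22% of all tested genes were higher and 6.46% lower. Kcnt1, a sodium-activated channel, stood at 348.0 and 439.8 CPM in the male and female HT and 465.2 and 548.1 CPM in the male and female WT libraries, with -0.37 ± 0.10 (SE, edgeR adjusted p = 0.209). Its groups did not overlap, though both females were above their males. Kcnn3, a small-conductance calcium-activated channel, had 0.77 ± 0.25, Kcnn1 0.29 ± 0.16 and Kcnn2, the small-conductance gene of Purkinje cells, -0.07 ± 0.15 (all SE). Kcnt1 (-0.48, adjusted p = 5.58e-07) and Kcnn3 (1.12, adjusted p = 0.000182) passed without the male WT library (edgeR), where 17.5% of all genes passed. Kcnt1 was at -0.20 (adjusted p = 1) without the male HT and at -0.24 (adjusted p = 0.0703) without the female WT library, and Kcnn3 at 0.43 (adjusted p = 0.327) without the female WT library (edgeR).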

How the data were processed

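Total RNA of cerebellum was made into 4 stranded mRNA libraries (2 HT, 2 WT, each 1 male and 1 female), read from a single end over 100 bases, all in 1 lane, per the labels' protocols. The authors deposited raw counts per gene symbol. The submitters' processing notes name STAR, featureCounts, FastQC, edgeR and mm9, without versions or settings, and do not say how strand was treated, so the assignment of reads from overlapping genes is unknown.

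The filter filterByExpr kept 15117 of 24015 genes (99.95% of the counts). TMM factors were 0.9988 to 1.002. The main test across all genes was edgeR 4.0.16 under R 4.3.3. Its quasi-likelihood model (robust option) had terms for genotype and sex, 1 residual degree of freedom and a median of 10.6 prior degrees of freedom, two-sided, Benjamini-Hochberg adjusted at 0.05 over all tested genes. The SE is the log2 fold change divided by the root of F, and intervals are 95%. To compare the genotype effect between sexes, a model with genotype and the genotype-by-sex product, but no main effect of sex, was used. Ratios within a sex used a prior count of 2. CPM are counts over the library total; floors of 3 counts cover counting error only. Lengths are of the longest GENCODE M21 transcript.

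The members and gene lists were chosen with earlier results of these data known. Named were the 9 members, Arid1b, the partner genes Kcnab1, Kcnab2, Kcnip1 to Kcnip4, Dpp6, Dpp10, Kcnmb1 to Kcnmb4, Kcna3 and Kcna4, the 4 genes of smallest p per list and, for the 2 members of widest range, the 3 closest genes; 1 gene that the rule names is not reported here. Slc17a6, Tph2, Th, Spp1, Nefh, Kcnh2, Kcnd1, Kcnd3os and the single choroid plexus markers were named after their values were seen. Lists of oligodendrocyte, astrocyte, microglia, endothelial, choroid plexus and skeletal muscle markers were also summed. Alternatives were DESeq2 1.42.0, limma-voom (limma 3.58.1), the likelihood ratio test, other size factors and filters, no sex term, an adjusted p of 0.1, and each library left out. Replicate numbers (1 male, 2 female) only name libraries. Scripts were tested on simulated data.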

Additional observations from a re-analysis of the deposited data

How the results depend on the processing

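No potassium channel member was called for genotype under DESeq2, limma-voom, the likelihood ratio test, DESeq2 size factors, library totals, either other filter, no sex term or an adjusted p of 0.1. With 1 library left out the count of called members ran from 0 to 2 (Kcnc1 and Kcnc2 without the male WT, where 17.5% of all genes passed, and Kcnd3 without the female WT library, where 4.3% did), and the median of the members ran from -0.00837 to 0.078. For sex and for its interaction with genotype, 0 members were called in every fit that has a sex term. The count of all genes called was 3, and 7 at an adjusted p of 0.1, 34 with DESeq2, 166 with the likelihood ratio test, 7 with DESeq2 size factors, 13 with library totals, 553 without a low-count filter, 0 with a filter of 1 CPM in 2 libraries, 0 without the sex term, and 0 to 2730 with 1 library left out; the cause was not tested, but fits without a library have no sex term and fewer samples. The split of calls was 3 higher and 0 lower with TMM, 5 and 2 with DESeq2 size factors, and 5 and 8 with library totals. Without a low-count filter Kcna3, Kcna4, Kcnab2, Kcnip2, Kcnq5 and Kcnt1 passed. Directions turned with 1 library left out for Kcna1 (-0.00207 to 0.078), Kcna2 (-0.0646 to 0.0445), Kcnma1 (-0.00838 to 0.13), Kcnip1 (-0.0144 to 0.048), Kcnip3 (-0.21 to 0.0471), Dpp6 (-0.0708 to 0.0842), Dpp10 (-0.18 to 0.079), Kcnmb1 (-0.52 to 0.0644), Kcnmb2 (-0.13 to 1.08) and Kcnmb4 (-0.46 to 0.0982). The main fit, with its sex term, is the analysis paired by sex, and the fit without that term is its unpaired form; the labels give no other pairing. Counts of a few per library limit what can be seen for the scarce subunits.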

Other observations

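Potassium channel genes that were low in the female WT library alone were counted after that pattern had been seen. Of the 72 tested genes on the potassium channel lists, 15 (20.8%) were lowest in that library and at least 1.5-fold below the next library, against 767 of all 15117 tested genes (5.07%). The other libraries were lowest in this sense for 1, 0 and 0 of the 72 genes (male HT, female HT, male WT). Kcnc2 was the only such gene among the 9 members. Chosen after their values were seen, Kcnh7 and Kcnh5, relatives of the ether-a-go-go channel, lay 9.26-fold and 4.57-fold below the next library, Kcnf1, a silent subunit, 2.58-fold, and Cntnap2, an axonal adhesion protein, 1.75-fold. In the female WT library Kcnh7 had only 6 and Kcnh5 15 counts. Kcna3 with 27 and Kcnmb2 with 28 counts there were also scarce. The 72 genes and all tested genes were not matched for level.

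The other marker lists moved as follows. Oligodendrocyte markers were higher in 6 of 6 cases (median log2 fold change 0.14), and those of endothelial and mural cells were lower in 5 of 5 (median -0.82), with 0 passing singly. The oligodendrocyte median was 0.22 between the males and 0.04 between the females, and the groups overlapped for 3 of the 6 genes. Of all tested genes, 51.1% were higher and 48.9% lower. For the endothelial and mural markers the median was -0.27 between the males and -1.14 between the females. Their sum was 189.2 CPM in the female WT library and 91.84 to 126.8 CPM in the others. Astrocyte and Bergmann glia markers had a median of -0.19 and microglia markers 0.15, while choroid plexus markers had 0.39. Between the males these medians were 0.04, 0.42 and 0.65, and between the females -0.30, -0.13 and 0.01, in the same order. Skeletal muscle genes summed to 129.4 CPM in the male HT library and to 2.31 to 6.31 CPM in the others.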
